A study of Mus musculus with 4 samples.

Results

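Genes of the semaphorin, plexin and neuropilin families were examined in CCR6+ group 3 innate lymphoid cells (ILC3) of the mesenteric lymph node. The members were all genes whose single symbol on the array began with Sema and a digit or with Plxna to Plxnd, or was Nrp1 or Nrp2. There were 31 such genes of 19938 named genes, on 33 of 35556 probe sets: 20 semaphorins, 9 plexins and 2 neuropilins. RNA came from naive C57BL/6 mice and was hybridised to 4 arrays that form 1 group, numbered 1 to 4. The cells were sorted as CD127+ CD90.2+ CCR6+ and ST2-, and the labels name no marker against T or B cells. Age, sex and pooling are not given, and the labels do not say that the 4 samples are separate animals, so the spread between arrays may be partly technical. No second cell type or treatment was analysed, and each gene was therefore set against background and not against a control group.

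Semaphorins are guidance proteins that share an extracellular sema domain and were first known for steering growing axons. Class 3 members are secreted, those of classes 4 to 6 span the membrane, and Sema7a is held by a lipid anchor. Plexins are their signalling receptors, and their intracellular part acts on small GTPases of the Ras and Rap type and through them on integrins and the cytoskeleton. Neuropilins are co-receptors with a short intracellular tail that join class 3 semaphorins to plexins and also bind vascular endothelial growth factors. In the immune system the families are known for effects on lymphocyte activation, contact between lymphocytes and dendritic cells, and cell movement.

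A gene was called above background by a detection test, which counts how many of 1241 receptor genes of smell, pheromone sensing and bitter taste had a mean log2 level at or above its own. The detection p received a Benjamini-Hochberg adjustment across the 19938 genes, and an adjusted value under 0.05 was a call. Of the 31 members, 12 were called, or 38.7%, while 46.2% of all named genes were. Of 18 genes typical of other organs (termed other-organ genes here), 6 were called too, led by Cryaa of the eye lens at 7.51 ± 0.16 and Ckm of muscle at 7.33 ± 0.14 (mean ± SD, n = 4, here and below). A stricter reading therefore asked for a value above all 18 on every array, which 6 members and 21.7% of all named genes met. Those 6 were the co-receptor gene Nrp1 (probe set 10576639), the plexin genes Plxnc1 (10372028), Plxnd1 (10547100) and Plxnb2 (10431424), and the semaphorin genes Sema4d (10409240) and Sema4b (10554375). The median level of the members was 6.01, that of all named genes 6.16 and that of the background genes 4.25.

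**Figure D1:**
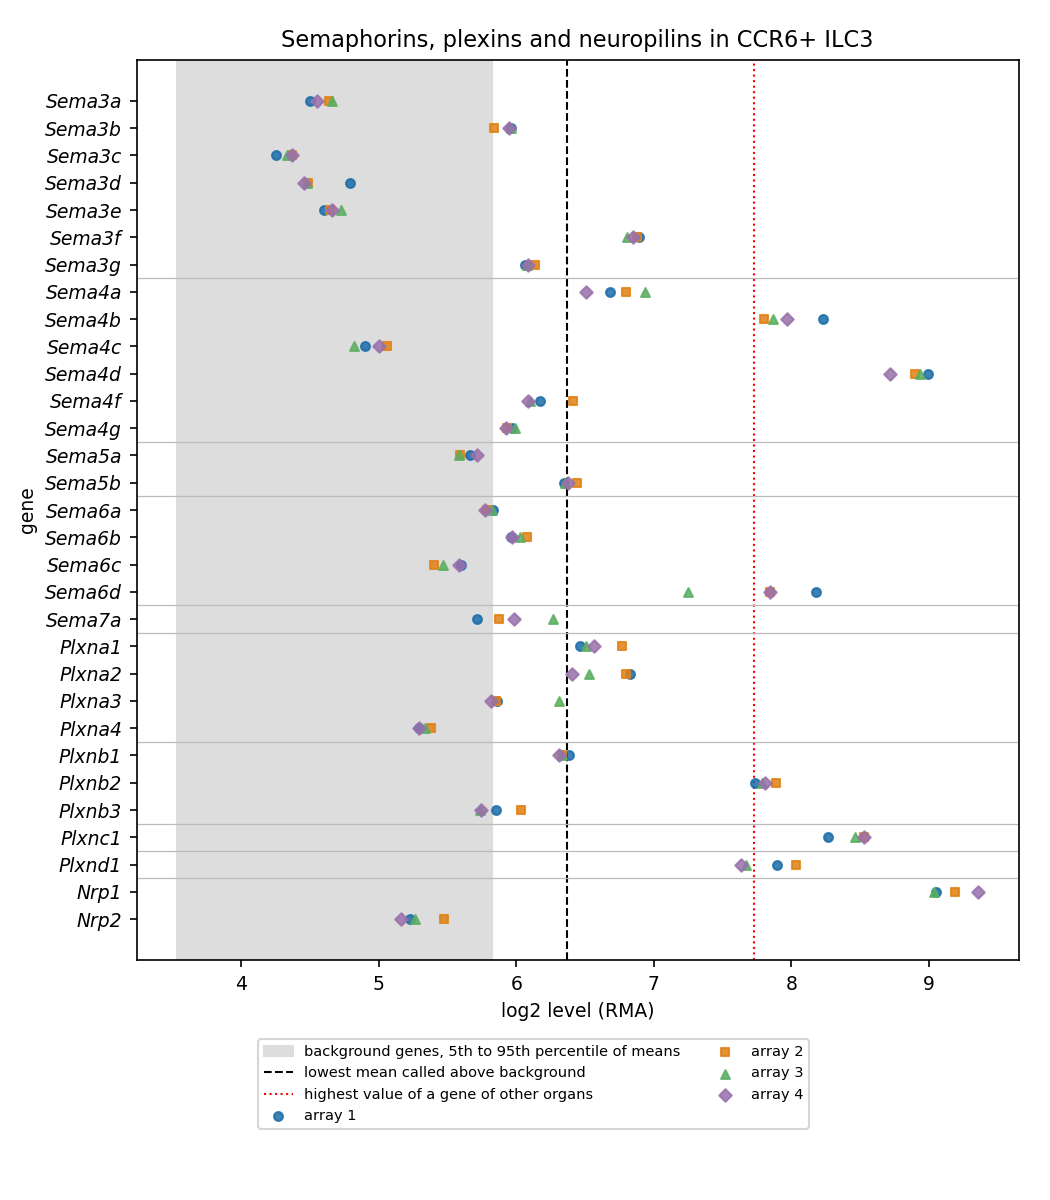
Log2 level (x axis) of each of the 31 genes (y axis, grouped by class) on arrays 1 to 4 (points). The grey band spans the 5th to 95th percentile of background gene means, from 3.53 to 5.82, the dashed line marks the lowest mean called, 6.37, and the dotted line the highest value of any other-organ gene, 7.73. Nrp1, Sema4d, Plxnc1, Sema4b and Plxnb2 lie to the right of the dotted line on all 4 arrays.

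The bases before the transcription start are shown for 4 of those 6 genes, Nrp1, Plxnc1, Plxnd1 and Sema4d, to set 3 receptors beside a ligand with a promoter of another composition. The sequences are from RefSeq (GRCm38.p6), cover the 250 bases before the start, run 5′ to 3′ on the gene's strand, and have CG dinucleotides in capitals. Nrp1 lies at chr8:128358823-128359072 on the plus strand, Plxnc1 at chr10:94944846-94945095, Plxnd1 at chr6:115995006-115995255 and Sema4d at chr13:51756684-51756933, all 3 on the minus strand.
Nrp1: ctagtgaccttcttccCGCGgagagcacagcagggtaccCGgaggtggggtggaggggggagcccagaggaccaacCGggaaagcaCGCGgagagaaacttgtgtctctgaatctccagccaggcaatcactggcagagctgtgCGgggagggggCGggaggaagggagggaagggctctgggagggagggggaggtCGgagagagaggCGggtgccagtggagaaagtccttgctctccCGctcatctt
Plxnc1: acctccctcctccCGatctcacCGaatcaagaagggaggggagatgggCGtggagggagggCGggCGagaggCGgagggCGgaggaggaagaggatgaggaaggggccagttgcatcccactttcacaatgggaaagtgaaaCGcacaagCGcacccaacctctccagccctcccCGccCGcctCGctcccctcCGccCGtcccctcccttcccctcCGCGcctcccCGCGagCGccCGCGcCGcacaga
Plxnd1: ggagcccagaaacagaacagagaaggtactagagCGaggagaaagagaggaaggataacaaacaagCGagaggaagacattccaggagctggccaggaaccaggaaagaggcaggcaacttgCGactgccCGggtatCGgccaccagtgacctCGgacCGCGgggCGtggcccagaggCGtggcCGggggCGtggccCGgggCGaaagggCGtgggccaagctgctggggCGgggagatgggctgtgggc
Sema4d: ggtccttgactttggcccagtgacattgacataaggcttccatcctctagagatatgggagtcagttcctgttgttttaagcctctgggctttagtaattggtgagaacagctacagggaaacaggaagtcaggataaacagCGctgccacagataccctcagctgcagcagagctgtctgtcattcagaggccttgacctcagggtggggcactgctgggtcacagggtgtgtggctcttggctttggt
These windows held 11 CG dinucleotides for Nrp1, 22 for Plxnc1, 16 for Plxnd1 and 1 for Sema4d. RefSeq lists 3 starts for Sema4d, of which the farthest upstream is shown, and the arrays do not tell which start was used.

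Promoter entries of 300 bases, 250 before and 50 after the start, were found for 26 of the 31 members, in 37 windows. Taking the window with the most CG dinucleotides per gene, the median was 23 over the 26 members and 8 over 27025 genes of the table, many of them noncoding. It was 24 for the 10 members above background and 23 for the 16 that were not, a small difference beside the range of 2 to 42 over the members. The GC box GGGCGG, on either strand, was found in 73.0% of the member windows and in 35.7% of all windows; its letters contain a CG. The core AGGTCA, known from sites of ROR factors, was found on either strand in 18.9% of member windows and in 16.3% of all. The members with it were Nrp1, Plxnb2, Plxnd1, Sema4b, Sema4d, Sema5a and Sema6b. TGTGGT, a core of RUNX sites, was found on either strand in 13.5% of member windows and 16.8% of all. TATAAA was found on either strand in 0 of the 37 member windows and 13.6% of all. A match is a description of letters and not of binding.

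Of the neuropilins, Nrp1 was above background and Nrp2 was not. Nrp1, which has been described on lymphoid tissue inducer-like ILC3 and also marks regulatory T cells of thymic origin, was at 9.05, 9.19, 9.04 and 9.36 on arrays 1 to 4. It was highest on array 4 and alike on arrays 1 and 3, and none of the 1241 background genes reached its mean. Its mean was 9.16 ± 0.15, with an adjusted detection p of 0.0108. Nrp2, the partner of Sema3f and of lymphatic growth factors, was at 5.22, 5.47, 5.26 and 5.16. All 4 values lay within the range of background, where 141 background genes had a mean at or above 5.28, and its adjusted detection p was 0.164. Nrp1 is also a gene of endothelium. Of 12 endothelium markers 1 was called, Pecam1 at 8.44 ± 0.18, beside 46.2% of all named genes. Limma's test against the 95th percentile of background called 3, beside 53.5% of all named genes. The requirement to lie above that percentile on every array also called 3, beside 54.4%. Both added Cldn5 at 6.07 ± 0.01 and Egfl7 at 5.94 ± 0.01. The mean of that list lay between 5.59 and 5.65 on the 4 arrays, and the part of endothelial cells in the level of Nrp1 was not tested.

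Plexins were called in 5 of 9 cases, 3 of them above all other-organ genes, beside 46.2% and 21.7% of all named genes. Plxnc1, the receptor of Sema7a, was at 8.27, 8.53, 8.46 and 8.53 on arrays 1 to 4. Array 1 was the lowest and the other arrays were alike. Plxnd1, the receptor of Sema3e with known roles in vessels and in thymocyte movement, was at 7.90, 8.03, 7.67 and 7.63. It was higher on arrays 1 and 2 than on arrays 3 and 4, a 1.32-fold range. The values on arrays 3 and 4 lay below the highest value of Cryaa on array 2, 7.73, so Plxnd1 passed the stricter reading when each array was read by itself but not with 7.73 as the bar on all of them. With that bar 5 members passed, beside 19.6% of all named genes. Plxnb2, which binds class 4 semaphorins, was at 7.74, 7.89, 7.78 and 7.81, with an SD of 0.06. The adjusted detection p was 0.0142 for each of Plxnc1, Plxnd1 and Plxnb2.

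The class A plexins pair with neuropilins for class 3 semaphorins or bind class 6 semaphorins directly. They were called in 2 of 4 cases, beside 46.2% of all named genes. Plxna1, known from dendritic cells, was at 6.47, 6.77, 6.51 and 6.56, and Plxna2 at 6.83, 6.80, 6.53 and 6.41. Both were called, at means of 6.58 ± 0.13 and 6.64 ± 0.21, but in the range of other-organ genes. Plxna3 at 5.96 ± 0.23 and Plxna4 at 5.33 ± 0.04 were not called. Plxna3 was at 6.31 on array 3 and between 5.82 and 5.86 on the others.

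Among the other class B plexins, Plxnb3 at 5.84 ± 0.14 was not called and Plxnb1 lay just outside the threshold. Plxnb1, the high-affinity receptor of Sema4d outside the immune system, was at 6.38, 6.33, 6.33 and 6.31, with an adjusted detection p of 0.0519. On the other side of the threshold was Sema5b, with a mean of 6.38 ± 0.04 and an adjusted detection p of 0.0488. There were 29 background genes at or above Plxnb1 and 27 at or above Sema5b, so the call separates a pair of genes at nearly the same place in the background. Sema5b was not called without array 3, at 6.39, or without array 4, at 6.38, while Plxnb1 was called without array 1, at 6.32, or without array 2, at 6.34.

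Semaphorins were called in 6 of 20 cases, 2 of them above all other-organ genes, beside the same 46.2% and 21.7% of all named genes. Of the 6 class 4 genes 3 were called. Sema4d, which encodes the leukocyte semaphorin CD100, was at 8.99, 8.90, 8.94 and 8.72, with an adjusted detection p of 0.0142. Array 4 was the lowest, and 2 background genes reached its mean of 8.89 ± 0.12. A second probe set of Sema4d, supported by 1 predicted transcript, was at 6.86, 6.96, 7.45 and 6.23, in the range of other-organ genes and with an SD of 0.50. Averaged over both probe sets, Sema4d stayed above background at 7.88 but no longer exceeded all other-organ genes on every array.

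Sema4b, a membrane semaphorin found on lymphocytes, was at 8.23, 7.80, 7.87 and 7.97, with an adjusted detection p of 0.0142. It was highest on array 1 and lay above all other-organ genes on each array. Sema4a, which costimulates T cells, was at 6.68, 6.79, 6.94 and 6.50, a call in the range of other-organ genes. Sema4f at 6.19 ± 0.15, Sema4g at 5.95 ± 0.03 and Sema4c at 4.95 ± 0.11 were not called.

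Sema6d was the class 6 gene called, and it varied most between arrays among the called members. This ligand of Plxna1 was at 8.18, 7.85, 7.25 and 7.85 on arrays 1 to 4. It was highest on array 1 and lowest on array 3, a 1.91-fold range, with array 3 in the range of other-organ genes. Its SD of 0.39 was larger than that of 90.5% of all genes above background. Without array 3, Sema6d joined the members above all other-organ genes, which then numbered 7. Array 3 also had the highest means of B cell and T cell markers, 8.83 and 7.73. On array 1, where Sema6d was highest, these means were 8.67 and 7.46. The mean of the ILC3 genes was 10.40 on array 1 and 10.41 on array 3. The part of other cells in the lower Sema6d value on array 3 was not tested. Sema6b at 6.01 ± 0.05, Sema6a at 5.80 ± 0.03 and Sema6c at 5.51 ± 0.09 were not called, and both probe sets of Sema6b gave the same values.

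Secreted class 3 semaphorins were called in 1 of 7 cases, beside 46.2% of all named genes. Sema3f, a ligand of Nrp2, was at 6.89, 6.88, 6.81 and 6.85, called with an adjusted detection p of 0.028 in the range of other-organ genes. Sema3g at 6.09 ± 0.03 and Sema3b at 5.93 ± 0.06 were not called. Sema3e at 4.66 ± 0.05, Sema3a at 4.59 ± 0.07, Sema3d at 4.56 ± 0.16 and Sema3c at 4.33 ± 0.06 lay in the middle of the background, with between 366 and 556 background genes at or above them. These last 4 genes lie near each other on chromosome 5, where RefSeq places 0 coding genes between Sema3d and Sema3a, 3 between Sema3a and Sema3e and 15 between Sema3e and Sema3c. Sema3b and Sema3f, on chromosome 9, are also 3 coding genes apart, and only the second was called.

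In the remaining classes, 1 of 2 class 5 genes was called, Sema5b as given above, beside 46.2% of all named genes. Sema7a was not called. Sema5a was at 5.64 ± 0.06 and not called. Sema7a, the membrane-anchored ligand of Plxnc1 and of an integrin, was at 5.72, 5.87, 6.27 and 5.98. It was highest on array 3 and not called, with an adjusted detection p of 0.0754 and an unadjusted p of 0.0411; limma's test did not call it either. Over all members, 21 of 31 had an unadjusted detection p under 0.05, beside 57.4% of all named genes.

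Looser tests added members at low levels. Limma's moderated test against the 95th percentile of background called 18 members, beside 53.5% of all named genes, and the requirement to lie above that percentile on every array called 18, beside 54.4%. The members added by both were Plxnb1, Sema3b, Sema3g, Sema4f, Sema4g and Sema6b. Those rules also called 10 of the 18 other-organ genes, so they carry less weight at these levels.

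Known ligand and receptor partners were compared by their calls. Of 19 combinations of a semaphorin with a plexin and, where needed, a neuropilin, 4 had every gene above background: Sema4d with Plxnb2, Sema4a with Plxnb2, Sema4a with Plxnd1, and Sema6d with Plxna1. In 1 of these, Sema4d with Plxnb2, both genes were also above all other-organ genes. In 8 combinations the plexin was called and the semaphorin was not, among them Sema3a with Plxna1 and Nrp1, Sema3e with Plxnd1, and Sema7a with Plxnc1. In 3 the semaphorin was called and the plexin was not: Sema3f with Plxna3, and Plxnb1 with Sema4a and with Sema4d. Taken singly, 46.2% of all named genes were called, and several genes recur in the combinations. These counts were not tested against combinations of other genes. RNA in the same sorted cells does not show that the proteins meet.

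Genes listed as other receptors and co-receptors of semaphorins were called in 6 of 14 cases, beside 46.2% of all named genes. The number above all other-organ genes was 4 of 14, beside 21.7% of all named genes. Tyrobp, the adaptor DAP12 that works with Trem2 and Plxna1 in the response to Sema6d, was at 10.07, 10.97, 10.57 and 10.83, while Trem2 itself was at 6.77 ± 0.08, in the range of other-organ genes. Lilrb4a, an inhibitory receptor, was at 10.05 ± 0.26. It is counted here by its place in the list, and binding of a semaphorin to it was not tested. Erbb2, a co-receptor of class B plexins, was called at 6.70 ± 0.11. Itgb1, part of the integrin that binds Sema7a, was at 8.30 ± 0.21, and its partner Itga1, named after its value was seen, was not called at 4.47 ± 0.07. Ptprf at 6.00 ± 0.07, L1cam at 5.65 ± 0.21 and Flt1 at 5.23 ± 0.09 were not called.

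Cd72, the receptor through which Sema4d acts on B cells, was at 9.71, 8.44, 9.59 and 8.88 on arrays 1 to 4. It was higher on arrays 1 and 3 than on arrays 2 and 4. Markers of B cells had list means of 8.67, 7.86, 8.83 and 7.86 on the same arrays. Of these markers 10 of 11 were above background, beside 46.2% of all named genes. They included Cd79b at 9.84 ± 0.55, Pou2af1 at 9.19 ± 0.35 and Cd79a at 8.84 ± 0.78, and Fcrla was not called. The part of B cell RNA in the level of Cd72 was not tested.

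Of 9 other ligands and partners of neuropilins 4 were called, 1 of them above all other-organ genes. Of all named genes 46.2% were called and 21.7% lay above all other-organ genes. Tgfb1 was at 8.71 ± 0.30, and Vegfb, a ligand of Nrp1, at 7.93 ± 0.25. Vegfa at 7.05 ± 0.02 and Gipc1, which binds the intracellular end of Nrp1, at 6.87 ± 0.16 were called in the range of other-organ genes. Vegfd at 5.48 ± 0.13, Pgf at 5.48 ± 0.11 and Vegfc at 5.20 ± 0.06 were not called.

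Genes acting below plexins were mostly above background, and most of them also serve other receptors. GTPases and their regulators were called in 14 of 19 cases, with 8 above all other-organ genes. Rac2 was at 11.15 ± 0.07, Rap1b at 10.89 ± 0.07, Rap1a at 10.61 ± 0.16, Rhoa at 10.46 ± 0.11 and Rac1 at 10.33 ± 0.06, and Rasa1, which switches off Ras proteins, at 9.10 ± 0.19. Rnd2 at 6.34 ± 0.25, Rnd1, a GTPase that binds plexins, at 6.15 ± 0.32 and Farp2 at 5.88 ± 0.16 were not called. Kinases and cytoskeleton effectors were also called in 14 of 19 cases, with 9 above all other-organ genes. Cfl1, the actin-severing protein cofilin, was at 11.04 ± 0.06, Rock1 at 10.25 ± 0.09, Pak2 at 9.89 ± 0.06, Ranbp9 at 9.23 ± 0.12, Gsk3b at 8.83 ± 0.15 and Ptk2b at 8.60 ± 0.15. Dpysl5 at 5.94 ± 0.08 and Dpysl4 at 5.72 ± 0.07, of the collapsin response mediator family of neurons, and Mical2 at 5.54 ± 0.03 were not called. Over the 4 lists, 38 of 61 genes measured were called, beside 46.2% of all named genes. Of the 61, 22 lay above all other-organ genes, beside 21.7% of all named genes.

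**Figure D2:**
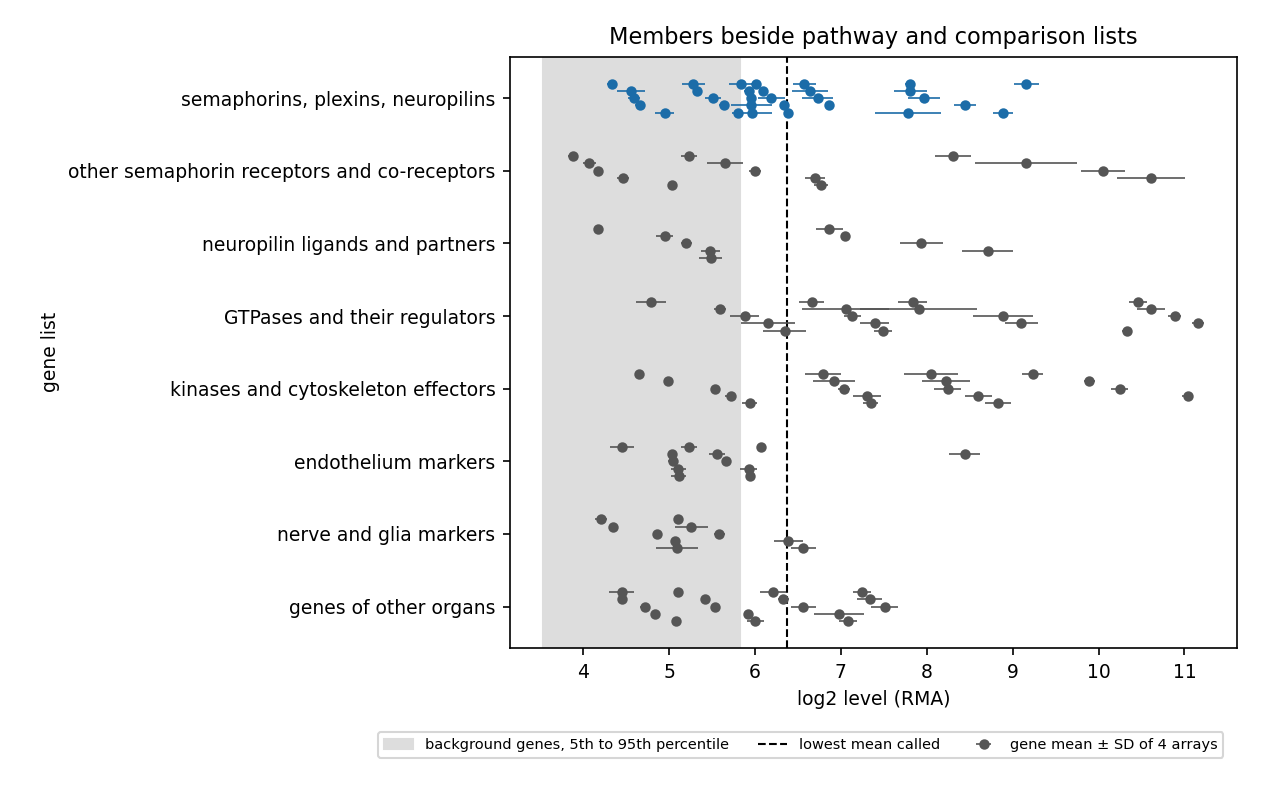
Mean log2 level (x axis) of each gene, with its SD over 4 arrays as a bar, for the members and for 7 comparison lists (y axis; height within a row only separates points). The grey band spans the 5th to 95th percentile of background gene means and the dashed line is the lowest mean called, 6.37. To the right of that line lie 12 of 31 members and 1 of 12 endothelium markers, beside 46.2% of all named genes.

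The SD of the called members over the 4 arrays had a median of 0.142, from 0.037 for Sema3f to 0.389 for Sema6d, and the median SD of all genes above background was 0.168. None of the 12 had 1 array standing apart from the other 3 by Dixon's ratio, which was the case for 9.38% of all genes above background. Values of Sema3b were equal on arrays 1 and 3 and those of Sema3c on arrays 2 and 4 to 5 decimals, so their SD can be too small. The same holds for some genes of the lists, for example Pecam1 and Cldn5, each equal on arrays 1, 2 and 4.

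The members were then read beside markers of other cells that the gate could hold. Of the 12 called members 1, Sema4d, had its lowest value of arrays 1 and 3 above its highest of arrays 2 and 4, the order of the B cell marker means, which 16.4% of all genes above background shared. The margin was 0.04 between arrays 3 and 2, and that order was lost after quantile normalization and when both probe sets of Sema4d were averaged. On arrays 2 and 4 alone, which had the lower B cell markers, 11 members were called, beside 44.3% of all named genes, and the member lost was Sema5b. On those arrays 7 members exceeded all other-organ genes, the 6 given above and Sema6d. B cell markers were present on those arrays as well, so these values do not show the members without B cell signal. In such bulk samples, fewer cells of a type and less RNA per cell cannot be told apart.

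The counts of called markers that follow stand beside the 46.2% of all named genes that were called. T cell markers were called in 10 of 12 cases, with list means of 7.46, 7.43, 7.73 and 7.45. They included Lat at 10.03 ± 0.12, Cd3e at 8.91 ± 0.22 and Cd3g at 8.77 ± 0.50, and Themis and Trat1 were not above background. Natural killer and ILC1 markers were called in 7 of 12 cases, with list means of 6.68, 6.94, 6.75 and 6.46. Ccl5 at 9.81 ± 0.83, Klrk1 at 8.28 ± 0.61 and Xcl1 at 8.06 ± 0.58 were called, and Eomes, Gzma and Gzmb were among the 5 that were not. Gzma was nevertheless at 7.89 on array 2, where the mean of that list was also highest, and between 5.19 and 5.94 on the others. Of 12 dendritic cell markers 5 were called, with list means of 5.94, 6.20, 6.29 and 5.94. Batf3 at 8.94 ± 0.19, Fscn1 at 7.33 ± 0.71 and Ccl17 at 7.12 ± 0.49 were called, and Itgax, Flt3, Xcr1 and Clec9a were among the 7 not above background. Flt3, at 6.26 ± 0.16, was called by both looser tests. Monocyte and macrophage markers were called in 2 of 10 cases, with list means between 5.85 and 6.21. These were Lyz2 at 8.22 ± 0.73 and Cd68 at 6.94 ± 0.46, and Csf1r, Cd14 and Adgre1 were not called. Markers of fibroblastic stroma were called in 4 of 11 cases and those of nerve and glia in 2 of 10. They included Ccl19 at 6.94 ± 0.20, Col1a1 at 6.93 ± 0.09 and Col1a2 at 6.56 ± 0.06 of stroma and Syp at 6.56 ± 0.15 and Snap25 at 6.39 ± 0.17 of nerve. No marker of either list exceeded all other-organ genes, while 21.7% of all named genes did. Of the other-organ genes, Syp and Gfap are also nerve and glia markers. Genes known from ILC3 that were analysed here were called in 14 of 14 cases, with list means between 10.40 and 10.51, among them Il7r at 12.56 ± 0.06, Id2 at 11.54 ± 0.12 and Il2ra at 11.46 ± 0.09. Sema4d, Sema4b, Nrp1 and Plxnd1 are known from T cells, B cells or both, and the part of those cells in their levels was not tested.

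**Figure D3:**
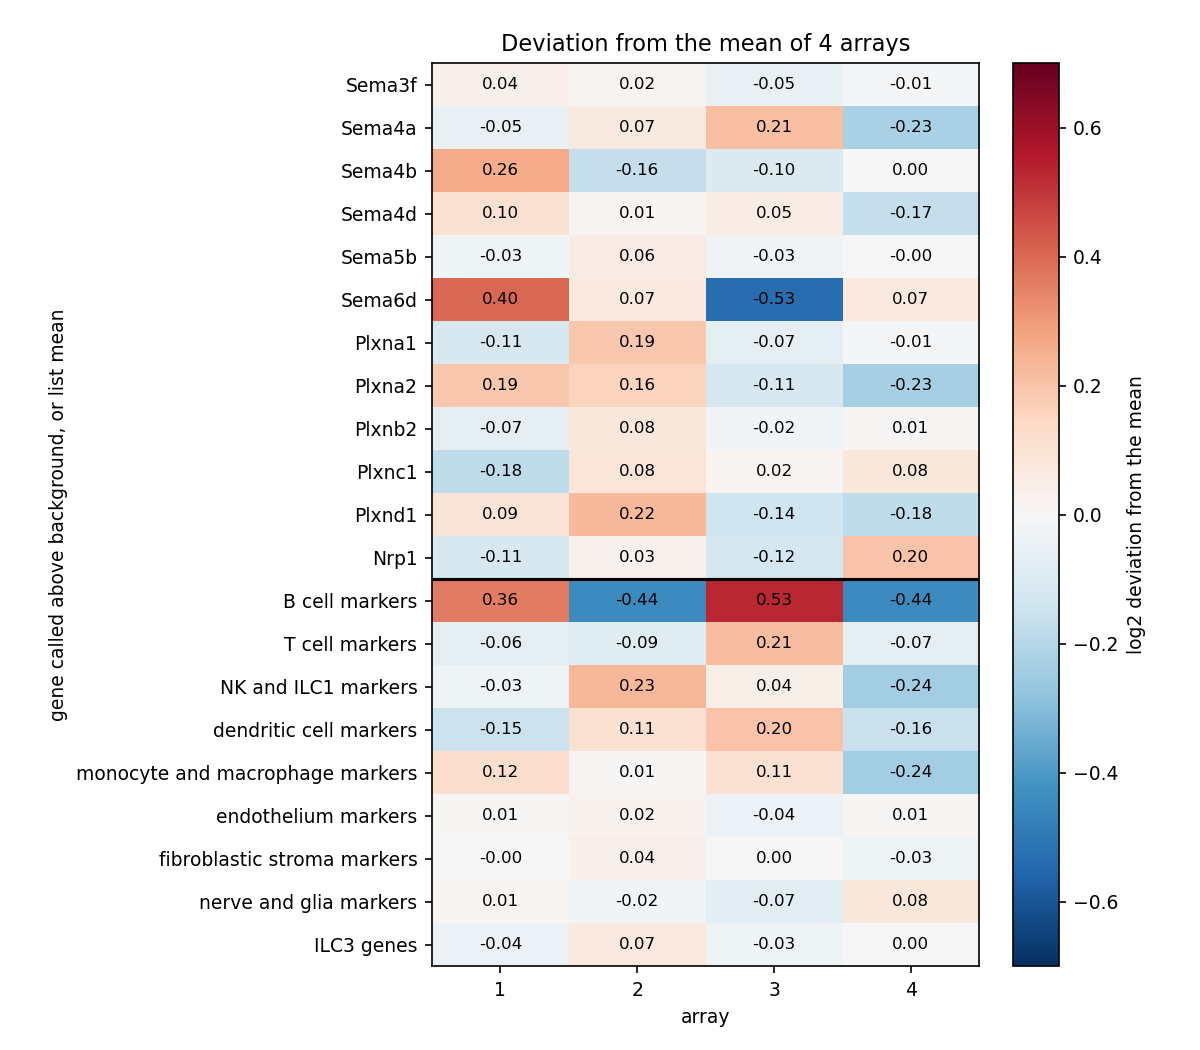
Deviation of the log2 level on each array (columns, 1 to 4) from the mean of the 4 arrays, for the 12 genes called above background (upper rows) and for the means of 9 marker lists (lower rows); red is above and blue below the mean. B cell markers are high on arrays 1 and 3 and low on arrays 2 and 4, Sema6d is lowest on array 3, and the ILC3 gene mean moves by at most 0.11 between arrays.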

How the data were processed

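RNA of 4 samples of sorted CCR6+ ILC3 was measured on 1 array each. The authors deposited log2 levels, 1 per probe set and array. Per the submitters' processing notes they come from RMA, the robust multi-array average, whose version and software were not given in the sources used here. RMA removes background, equalises the arrays and combines the probes of a set, which compresses low levels and can give equal values on several arrays. Array medians lay between 5.99 and 6.03. Scanner files were not used here, so background correction could not be varied.

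Of 35556 probe sets, 21789 had a single symbol in GEO's platform annotation, 1621 several and 12146 none, and 21698 were matched to RefSeq (GRCm38.p6), used for symbols, gene order and promoters. The probe set with the highest mean stood for a gene. The detection test and the alternatives are described with the results; limma 3.58.1 in R 4.3.3 and Python 3.11.15 were used. The calculations were tested on simulated data. The number of arrays limits the precision, and probe sets differ in binding, so levels of different genes are not compared as RNA amounts.

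The members and lists were chosen with earlier results of these data known. All members are named. Each pathway list gives up to 6 called genes and up to 3 others with the highest mean, each marker list up to 3 called genes by the same order, and the genes of other organs give the 2 highest. Markers named as not called, and Itga1, were chosen after their values were seen. Of the listed genes, those with no singly named probe set are not analysed here.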

Additional observations from a re-analysis of the deposited data

Results flagged for a closer look

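Among 90 genes examined, the 31 members and the named genes of the lists, 9 had 1 array far from the other 3; chance flags about 1 in 20 groups, and 9.38% of all genes above background were flagged. The 3 members were Plxna3, at 6.31 on array 3, Sema3b, at 5.84 on array 2, and Sema3d, at 4.79 on array 1, and none of them was called above background. Cd3g, a chain of the T cell receptor complex, was at 9.51 on array 3, where the T cell marker mean was also highest. Pecam1 was at 8.17 on array 3 and at an equal value, 8.53, on arrays 1, 2 and 4, so its flag rests on tied values. Rac1 was at 10.24 on array 4, and L1cam, not called, was at 5.97 on array 1. Snap25, a gene of synapses, was at 6.65 on array 4, and Ckm of muscle was at 7.12 on array 3.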

How the results depend on the processing

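Over 12 alternatives, 24 of the 31 members kept their call, 11 of them called and 13 not called. The exceptions were Sema5b, lost with olfactory receptor genes alone as background, without array 3, without array 4 and on arrays 2 and 4 alone, and Plxnb1, called without array 1 or array 2, when dim genes were left out before the adjustment, and by both looser tests. The looser tests also added Sema3b, Sema3g, Sema4f, Sema4g and Sema6b. The number of members called lay between 11 and 18. Leaving out 1 array at a time gave 11 to 13. The number above all other-organ genes was 5 to 7: 5 with the mean of all probe sets of a gene, and 5 with the highest other-organ value on any array as the bar, an alternative chosen after seeing the data, as was the use of arrays 2 and 4 alone. The number of called members with the array order of the B cell markers was 1, but 0 with the mean of all probe sets, 0 after quantile normalization, and 2 to 5 when 1 array was left out, which leaves fewer arrays to order. No paired analysis was possible because the samples form 1 group. Signal over background limits the calls: members with a mean under 6.37 could not be told from background by the detection test.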
